A study of Mus musculus with 2 samples.

Results

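The major histocompatibility complex (MHC) region of mouse chromosome 17 held 331 of the 53593 DNaseI sites listed for lymphoma T6, or 13.7% of the 2419 sites on that chromosome. Members were all sites whose listed start lay from 33.5 to 38 Mb of chromosome 17 in the mm9 build, a stretch of 4.5 Mb, so that position alone decides which sites are members. T6 is 1 tumour of the Eμ-myc mouse on the C57/Bl6 strain, in which an immunoglobulin heavy chain enhancer drives Myc in B cells. Its genotype was Arf-/- Trp53+/+, so the tumour lacked Arf and carried intact Trp53, and it had not been treated. The labels describe B cells pressed from lymph nodes and used unpurified. The age of the animal is not given in the sources used here. DNaseI sequencing maps stretches where DNA is readily cut because nucleosomes are absent or displaced. An input library from the same tumour carries the same genotype and was not analysed here. With 1 library, no replicate and no score or read count per site, differences below are given with 95% counting intervals and no p-value. Neighbouring sites are not independent, so the true error is larger. The label of B cells could not be checked against markers, because the list gives positions only.

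The MHC holds the genes with which cells show peptides to T cells. Class I molecules display peptides from inside almost every nucleated cell and are read by CD8+ T cells. Class II molecules display peptides taken up from outside, are made mainly by B cells, dendritic cells and macrophages, and are read by CD4+ T cells. The class III stretch between them holds genes of the complement system, the tumour necrosis factor family and many housekeeping genes.

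In the gene table of another assembly (RefSeq, GRCm38.p6), which served here for names and order only, a run of genes from Daxx to H2-K1 comes first and includes Tapbp, whose product tethers class I molecules to the peptide transporter. Ring1, H2-Ke6, Slc39a7, Rxrb and Col11a2 come next. The class II stretch follows as 14 protein-coding genes in the order H2-Oa, Brd2, H2-DMa, H2-DMb2, H2-DMb1, Psmb9, Tap1, Psmb8, Tap2, H2-Ob, H2-Ab1, H2-Aa, H2-Eb1 and H2-Eb2. H2-Ab1, H2-Aa and H2-Eb1 encode chains of the presenting class II molecules, the H2-DM genes the factor that loads them, and H2-Oa and H2-Ob its inhibitor. Tap1 and Tap2 form the peptide transporter, Psmb8 and Psmb9 are subunits of the immunoproteasome, and Brd2 encodes a bromodomain protein that binds acetylated histones. The class III stretch then runs over 62 genes from Btnl2 to Ddx39b. It includes the complement genes C4b, Cfb and C2, the heat shock genes Hspa1a and Hspa1b, and the cytokine genes Ltb, Tnf and Lta. Beyond it lie the class I genes H2-D1 and the H2-Q group, 26 genes from Pou5f1 to Gnl1, 10 genes from H2-T24 to H2-T3, 9 genes of the H2-M group from H2-M10.2 to H2-M10.6, and 14 genes from Trim26 to Gabbr1. A run from Olfr90 to Olfr134 comes last, in which 42 of 45 genes encode olfactory receptors. Which gene each site lies at was not analysed here, since no mm9 annotation was used.

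The sequence of the sites themselves was not used here for the same reason. To show the kind of regulatory sequence the region carries, the 250 bases before the start of 4 of its genes are printed below from RefSeq (GRCm38.p6, each read along its gene, 5′ to 3′, the first start listed). H2-Aa and H2-Eb1 stand for class II and H2-K1 and H2-D1 for class I. Capitals mark the letters CTGATTGG, the Y box core of class II promoters, and GGGATTCCC, a kappa B core known from class I promoters, on either strand.
H2-Aa: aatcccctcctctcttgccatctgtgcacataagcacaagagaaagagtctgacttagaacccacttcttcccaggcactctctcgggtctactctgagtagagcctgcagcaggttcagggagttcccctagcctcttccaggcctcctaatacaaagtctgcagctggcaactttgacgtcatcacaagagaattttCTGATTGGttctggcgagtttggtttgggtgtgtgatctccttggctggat
H2-Eb1: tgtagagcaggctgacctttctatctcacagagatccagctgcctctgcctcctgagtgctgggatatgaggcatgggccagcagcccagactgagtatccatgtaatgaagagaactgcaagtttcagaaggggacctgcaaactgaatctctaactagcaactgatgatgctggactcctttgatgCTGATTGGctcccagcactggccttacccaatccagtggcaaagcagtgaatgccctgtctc
H2-K1: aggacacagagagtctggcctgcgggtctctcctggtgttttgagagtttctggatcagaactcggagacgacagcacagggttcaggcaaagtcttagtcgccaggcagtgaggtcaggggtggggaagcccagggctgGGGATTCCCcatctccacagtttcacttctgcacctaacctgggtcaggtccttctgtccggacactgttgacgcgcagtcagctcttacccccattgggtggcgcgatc
H2-D1: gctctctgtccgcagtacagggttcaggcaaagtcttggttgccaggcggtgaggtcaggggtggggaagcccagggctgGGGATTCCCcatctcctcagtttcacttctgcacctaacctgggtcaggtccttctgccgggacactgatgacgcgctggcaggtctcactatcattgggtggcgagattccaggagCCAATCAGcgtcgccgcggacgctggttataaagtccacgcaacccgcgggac

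CTGATTGG occurs on either strand in 3.83% of all 32851 promoter windows of this length in the table, and in 4.43% of its genes. Fixed lists of genes by position were matched to the table, and H2-K1, a class I gene at the class II end, stands on both the class II and the class I list. The motif occurs in 6 of the 14 genes on the class II list that the table holds, namely H2-Oa, Psmb9, Tap1, H2-Aa, H2-Eb1 and H2-Eb2. Among 21 genes of the class I list, 11 hold it, and 7 of these 11 belong to the H2-M9, H2-M10 and H2-M11 family, whose members resemble each other in sequence. Among 24 class III genes, 2 hold it, the neighbouring heat shock genes Hspa1a and Hspa1b. GGGATTCCC occurs in 0.301% of all windows, in 4 of the 21 genes of the class I list (H2-K1, H2-D1, H2-Q6 and H2-Q7), in 1 of the 14 of the class II list (again H2-K1) and in none of the 24 class III genes. These matches describe the letters of the promoters. They were not set against the sites, whose coordinates belong to mm9.

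Sites were about 3 times as dense in the MHC region as on the rest of chromosome 17, and they lay mostly in its first 3 Mb. The region held 73.6 sites per Mb (95% interval 65.8 to 81.9), against 23.8 per Mb (22.8 to 24.8) over the remaining 87.8 Mb of the chromosome, measured from its first to its last site. The ratio was 3.09 (2.74 to 3.47). Sites covered 313 kb or 6.96% of the region, against 1.96% of the rest of the chromosome. Neighbouring sites in the region were a median of 4.08 kb apart (3.27 to 4.95) and those outside it 7.70 kb (6.80 to 8.63). Gaps of at most 12500 bp made up 80.0% of the 330 gaps within the region and 59.6% of the 2086 gaps elsewhere on the chromosome.

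A high density over several megabases was not confined to the MHC on this chromosome. Among 21 consecutive windows of 4.5 Mb laid from the region, the MHC window had the most sites, 331. The window from 24500001 to 29000000 followed with 327 and the adjoining window that begins at 29000001 held 289. A window of the same length that was free to start at any site held up to 380 sites on chromosome 17, from 25534652 to 30034651. The window next after the MHC, from 38000001 to 42500000, held 5 sites. Over all autosomes, 10 of 553 other consecutive windows held more sites than the MHC region, and the median window held 78. With free starts, 17 separate autosomal windows held as many sites or more, up to 576 on chromosome 3.

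**Figure D1:**
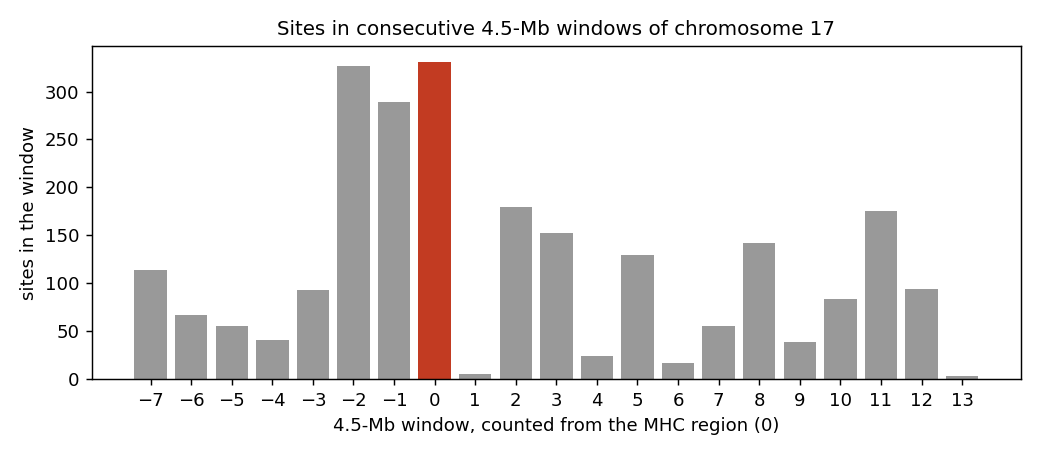
Number of DNaseI sites in each of 21 consecutive 4.5-Mb windows of chromosome 17 (vertical axis, sites), numbered from the MHC region, which is window 0 and drawn in red. The next windows to its left hold 289 and 327 sites beside the 331 of the MHC region, and window 1 holds 5.

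The profile in steps of 100 kb was uneven. Of 45 steps, 12 held no site, 21 held 1 to 10 and 12 held more than 10, with a median of 6 per step. On the rest of chromosome 17, 51.6% of 878 steps held no site and the median step held 0. Steps with more than 10 sites were 26.7% of the MHC steps and 5.01% of the others. More than 20 sites were present in 5 MHC steps, in 2 of the 878 other steps of chromosome 17, and in 65 of 23990 autosomal steps outside the region (0.271%). These 5 MHC steps together held 117 sites, 35.3% of the members. The densest was the step from 35300001 to 35400000, with 30 sites covering 32.1 kb. Only 3 autosomal steps outside the region held 30 or more. The other 4 were the 3 steps of the class II block, with 23, 22 and 21 sites in order, and the step from 35100001 with 21. By covered length the first 5 steps were the one at 35300001, then those of class II at 34400001 with 23.1 kb, 34300001 with 22.7 kb and 34200001 with 22.6 kb, and the one at 35000001 with 20.01 kb from 14 sites. That last step reached its rank with fewer but wider sites, since their median width was 1386.5 bp and 6 of the 14 exceeded 1500 bp.

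**Figure D2:**
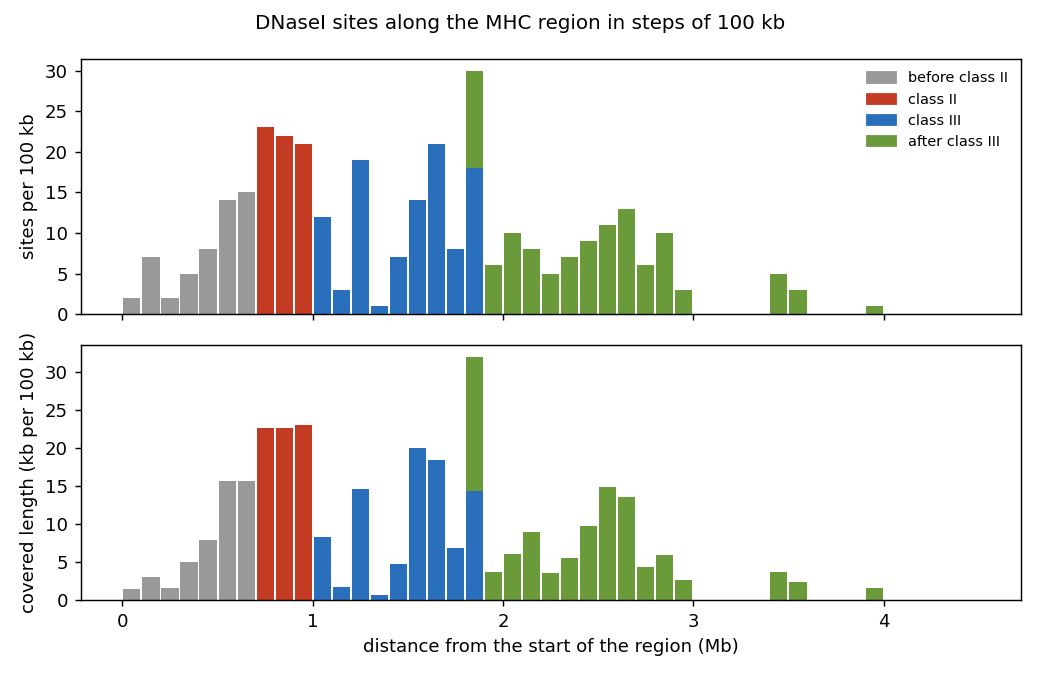
Sites (upper panel) and covered length in kb (lower panel) in each 100-kb step along the MHC region. The horizontal axis is the distance from the start of the region in Mb, and colours mark the block in which a site starts. The 3 class II steps form a plateau of 21 to 23 sites, class III includes steps of 3 and 1 sites beside fuller ones, and 12 steps hold none.

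The densest step straddled the end of the class III block at 35.35 Mb. Of its 30 sites, 18 began before that limit and 12 after it. In the gene order class III ends with Ddx39b and H2-D1 follows, but the sites were not placed at either gene.

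Class II was the densest block of the region. Its 66 sites between 34.2 and 34.5 Mb came to 220.0 per Mb (170 to 280), which was 9.25 times the rest of chromosome 17 (7.12 to 11.8). Sites covered 22.8% of the block, and its longest gap was 15.5 kb. Among consecutive windows of 0.3 Mb laid from the block, none of 307 others on chromosome 17 and none of 8023 others on the autosomes held as many sites. The highest held 59 and 63. The one with 59 lay within the MHC region itself, from 35100001 to 35400000. With windows free to start at any site the highest elsewhere on chromosome 17 was 61. It too lay within the MHC region, from 35078368 to 35378367, across the end of class III. On the autosomes, 2 separate windows reached 66 or more. The highest of these, with 71, lay on chromosome 3 from 87747560 to 88047559. The rank of the block therefore depended on where the windows began.

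Class III was dense as well, but its sites came in runs with long empty stretches between them. Its 103 sites between 34.5 and 35.35 Mb came to 121 per Mb (98.9 to 147), 5.09 times the rest of the chromosome (4.14 to 6.21). Among consecutive windows of 0.85 Mb, 11 of 2847 others on the autosomes held more sites. On chromosome 17, 1 of 109 others did, with 114 sites, in the window that ends where class III begins. With free starts, 30 separate autosomal windows held as many or more, up to 175 on chromosome 3. Of the free windows on chromosome 17, which began at a site and did not overlap class III, the highest held 111. It lay within the MHC region, from 33629839 to 34479838. Class II had 1.82 times the density of class III (1.31 to 2.50). The median gap was 2.44 kb (1.17 to 3.38) in class II and 3.20 kb (1.45 to 4.5) in class III, so the typical spacing of the 2 blocks overlapped within counting error. The 2 blocks differed in their longest gaps. Class III held gaps of 115 kb (34577249 to 34692201), 82.1 kb (34850429 to 34932549) and 58.3 kb (34791452 to 34849794), and its step from 34800001 held 1 site of 634 bp. Its step counts ran 12, 3, 19, 1, 7, 14, 21 and 8 from 34500001 to 35300000.

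Close spacing at the scale of single sites was frequent in class III and class II, whose shares overlapped within counting error. Of the 103 sites of class III, 52 had another site within 500 bp (50.5%, 40.5 to 60.5%), and in class II 45.5% did (33.1 to 58.2%). Before class II the share was 32.1% (19.9 to 46.3%). Outside the region, 31.1% of the sites of chromosome 17 had one (29.1 to 33.2%). After class III the share was 19.3% (12.3 to 27.9%). Class III had 22 such runs holding 51 sites, with none of more than 3 sites. The remaining site had its neighbour across the block limit. The longest run spanned 6.06 kb (35084409 to 35090464) and began with the widest site of the block. Some others were pairs of narrow sites. The pair at 34950542 to 34951254 consisted of sites of 289 and 296 bp. When sites at most 1 kb apart were joined, class III fell to 67 regions of median width 1066 bp (759 to 1415) and class II to 44 regions of 1353.5 bp (898 to 1858).

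In the 0.7 Mb before class II the fullest steps were the 2 next to it. This stretch held 53 sites, 75.7 per Mb (56.7 to 99.0), with 2, 7, 2, 5, 8, 14 and 15 sites in its 7 steps. The 2.65 Mb after class III held 109 sites, 41.1 per Mb (33.8 to 49.6). Of these, 100 began before 36.5 Mb, at 87.0 per Mb (70.8 to 106), and 9 in the 1.5 Mb after it, at 6 per Mb (2.74 to 11.4), which is 0.252 times the rest of the chromosome (0.115 to 0.480). The split at 36.5 Mb was chosen after the profile was seen.

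**Figure D3:**
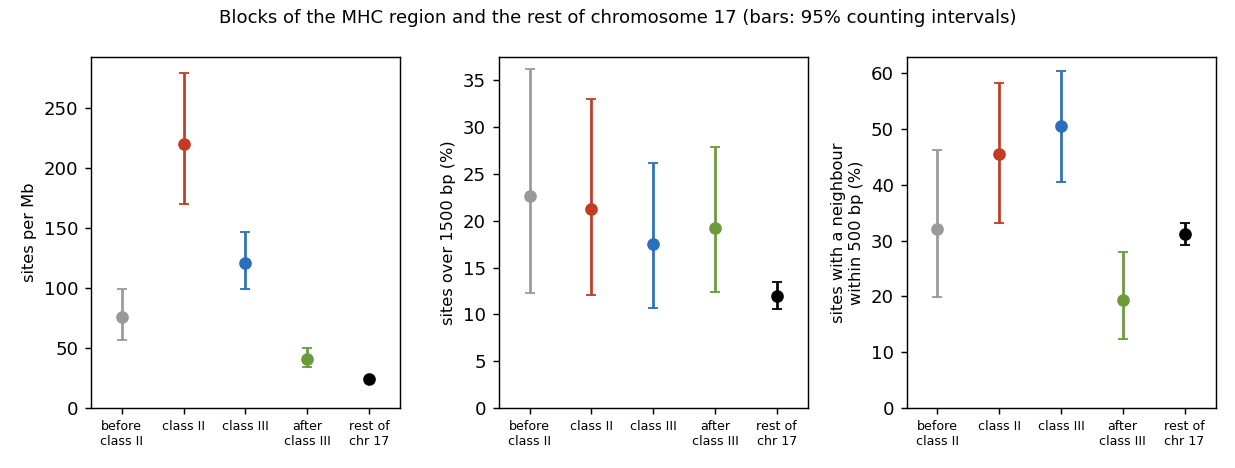
Sites per Mb (left), share of sites over 1500 bp in percent (middle) and share with a neighbour within 500 bp in percent (right) for the 4 blocks of the region and the rest of chromosome 17. Points are values and bars 95% counting intervals. Class II stands highest in density at 220.0 per Mb, the shares of wide sites overlap among the blocks, and the share with a close neighbour is 50.5% in class III and 19.3% after it.

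The sparse end can be given site by site. After a gap of 449 kb (36452533 to 36901049), 5 sites followed within 73.6 kb, of 299, 617, 812, 501 and 1539 bp, the last ending at 36974692. A gap of 109 kb preceded 3 sites of 492, 1338 and 619 bp between 37083904 and 37095617. After a further 311 kb without a site came the last member, of 1565 bp (37406686 to 37408250). The next site of the chromosome began 2572 kb further on, at 39979801, and lies outside the region. At the other limit, the last site before the region ended at 33496278 and the first member began at 33530823. In the gene order given above, the H2-M group, the Trim genes and the olfactory receptors come last. Olfactory receptor genes are expressed in the nasal epithelium, and H2-M10 genes are known from the vomeronasal organ. The sites of this end were not placed at these genes. How far reads can be mapped uniquely in these repeated gene families was not tested.

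Wide sites made up a larger share of the members than of the other sites of the chromosome. Sites wider than 1500 bp numbered 65 of 331, or 19.6% (15.5 to 24.3%), against 12.0% on the rest of chromosome 17 (10.6 to 13.4%) and 11.4% in the whole list. Sites narrower than 400 bp numbered 86, or 26.0% (21.3 to 31.1%), against 30.2% on the rest of the chromosome (28.3 to 32.2%) and 30.5% in the whole list, so that these shares overlapped within counting error. Per Mb, the region had 5.07 times as many wide sites as the rest of the chromosome (3.80 to 6.69), 2.91 times as many of 400 to 1500 bp (2.47 to 3.40) and 2.66 times as many narrow ones (2.10 to 3.33). Wide sites made up 43.0% of the covered length of the region and 30.2% on the rest of the chromosome. The median width was 749 bp (675 to 804) in the region and 680 bp (661 to 703) outside it, and these intervals overlap. The difference of 69 bp had an interval of -5 to 124, taking the outside median as fixed. Against all other autosomal sites it was 86 bp (12 to 141), and against the rest of the chromosome after merging neighbours within 1 kb it was 218 bp (16 to 350). A merged width includes the gaps between its sites, and so also reflects close spacing. Merged regions held 1.35 sites each in the MHC and 1.27 on the rest of the chromosome. Width also depends on the peak caller and on depth, neither of which is known here. The smallest listed width of 249 bp was held by 2 members, by 43 of 2088 sites on the rest of the chromosome and by 1271 of 52410 other autosomal sites. With so few members at this width, the shares were not compared.

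The intervals for the share of wide sites overlapped among the 4 blocks. It was 22.6% before class II (12.3 to 36.2%), 21.2% in class II (12.1 to 33.0%), 17.5% in class III (10.7 to 26.2%) and 19.3% after class III (12.3 to 27.9%). The sites of 2500 bp or wider numbered 12, of which 1 lay before class II, 4 in class II, 1 in class III and 6 after it. The rest of chromosome 17 held 43 such sites. Sites this wide made up 3.63% of the members (1.89 to 6.25%) and 2.06% of the other sites of the chromosome (1.49 to 2.76%). These shares overlapped within counting error. Per Mb, the region had 5.44 times as many of them as the rest of the chromosome (2.61 to 10.5). For sites of any width this ratio was 3.09 (2.74 to 3.47).

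The widest member was a class II site of 6662 bp (34253770 to 34260431), the fourth widest of the list and the widest on chromosome 17. It had 4 other sites within 10 kb, of which 1 was narrow, and gaps of 6.61 and 3.79 kb to its neighbours. The second widest, of 4479 bp, was also in class II (34398132 to 34402610) and ranked 52 in the list. Class II held 2 more sites of 2500 bp or wider, of 2659 bp (34422699 to 34425357) and 2703 bp (34441268 to 34443970). Between these 2 sites lay wide sites of 1801, 1519 and 1560 bp, so that 5 of the 14 wide sites of class II fell within 21.3 kb. The remaining wide sites of class II, from 1571 to 2424 bp, were spread over the block.

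After class III, the widest site was one of 3529 bp (35354814 to 35358342), which began 4.81 kb beyond the class III limit and had 4 narrow sites among the 6 within 10 kb. The others of 2500 bp or wider in that stretch were 3206 bp (36133680 to 36136885), 2966 bp (35972935 to 35975900), 2939 bp (35679334 to 35682272), 2727 bp (35377770 to 35380496) and 2624 bp (36052543 to 36055166). Their surroundings differed. The site of 3206 bp had 1 other site within 10 kb, and that of 2966 bp had 4. The widest site before class II measured 2734 bp (34065902 to 34068635), and the widest in class III 2640 bp (35084409 to 35087048).

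**Figure D4:**
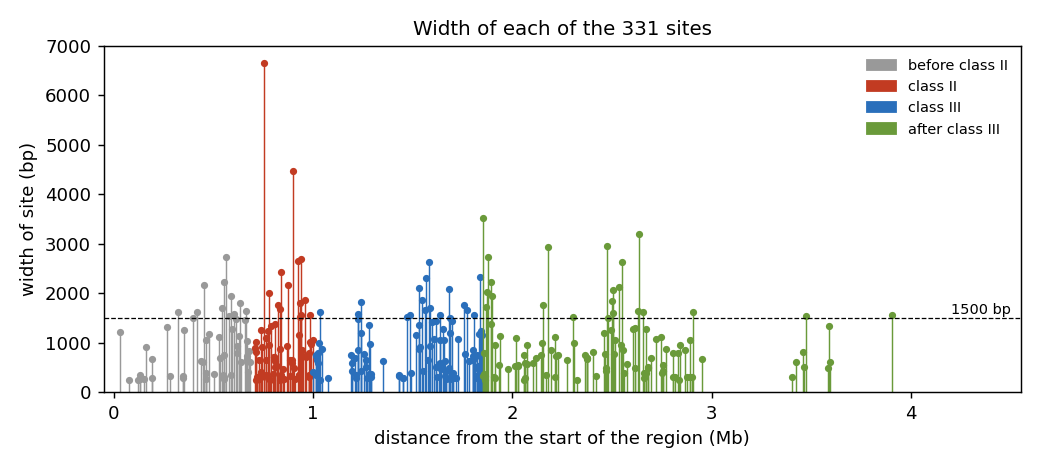
Width in bp of each of the 331 sites against the distance of its start from the start of the region in Mb. Stems and points are single sites, coloured by block, and the dashed line marks 1500 bp. The class II sites of 6662 and 4479 bp stand above all others, and no site from 3 Mb onward exceeds 1565 bp.

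A larger share of the members than of the other sites of the chromosome lay in clusters. A cluster here is a chain of 10 or more sites in which no gap exceeds 12500 bp. The 331 sites formed 67 groups, of which 27 were single sites, 32 held 2 to 9 sites and 8 were clusters. The 8 clusters held 181 members, or 54.7% (49.1 to 60.1%), on 769 kb or 17.1% of the region. The rest of chromosome 17 had 24 clusters with 16.7% of its sites (15.1 to 18.3%). This came to 17.8 clusters per 10 Mb in the region and 2.73 elsewhere on the chromosome. All 8 clusters began between 34027141 and 35300746, and none extended beyond 35412254.

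The largest cluster lay in class II and was built around the widest site. It had 38 sites over 147 kb (34208863 to 34356126), of which sites covered 24.1%, with 13 sites before the site of 6662 bp and 24 after it. Narrow sites made up 34.2% of it and wide ones 13.2%. Of the 656 clusters of the whole list, 5 had more sites and 7 were longer. A second class II cluster, of 20 sites over 78.5 kb (34422699 to 34501217), had 7 wide and 4 narrow sites and covered 28.9% of its length; its last part crossed into class III. Between these clusters lay a group of 9 sites over 37.6 kb (34371643 to 34409219) that held the site of 4479 bp. The gaps on either side of that group were 15.5 and 13.5 kb, above the joining distance. One cluster stood before class II, with 20 sites over 114 kb (34027141 to 34140910) and 7 wide sites.

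Class III held 4 clusters of its own and parts of 2 others. Its own had 10 sites (34513748 to 34548624), 22 sites (34692202 to 34791451), 28 sites (35030692 to 35170030) and 10 sites (35182688 to 35226874). The gap between the second class II cluster and the first of these was 12.53 kb. That between the cluster of 28 and the last was 12.657 kb. Both only just exceeded the joining distance of 12500 bp, so a slightly longer distance would join each pair. The cluster of 28 had 7 wide and 3 narrow sites with a median width of 991 bp. The cluster of 22 had 2 wide and 7 narrow ones with a median of 621.5 bp. Besides the second class II cluster, a cluster of 33 sites over 112 kb (35300746 to 35412254) was shared. It crossed from class III into the stretch after it and was the most densely covered of the 8, at 30.1%. It held 19 sites before and 13 after its widest, of 3529 bp.

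**Figure D5:**
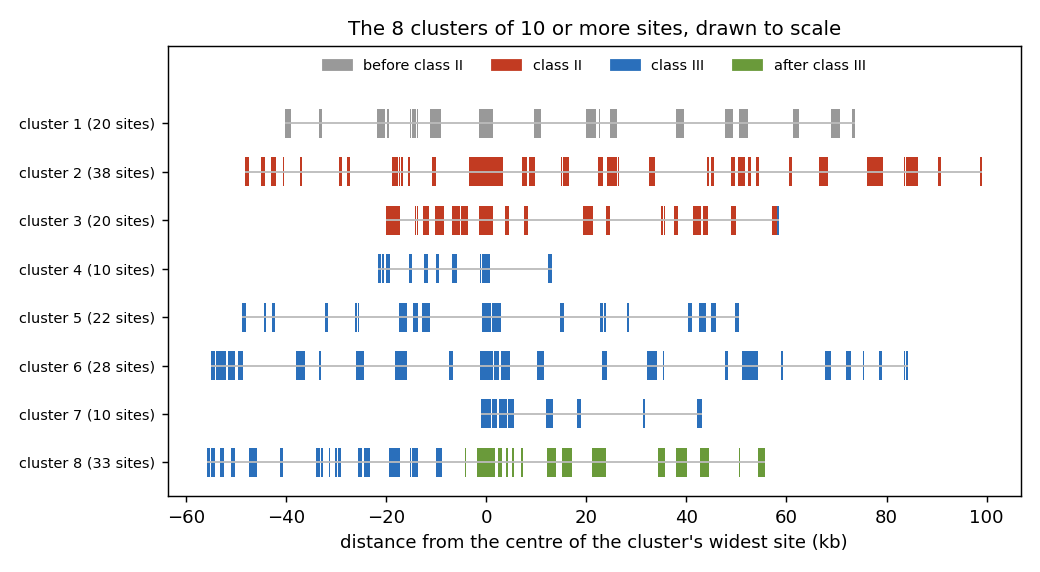
The 8 clusters of the region in order along the chromosome, each on its own line, with every site drawn as a box to scale and coloured by block. The horizontal axis is the distance in kb from the centre of the cluster's widest site. Cluster 2, in class II, is the longest at 147 kb and has the widest box, and cluster 8 changes from class III to the stretch after it.

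The limits of the clusters depended on the joining distance. At 5 kb, 2 clusters were left, with 21 sites from 35322617 to 35380496 and 10 sites from 34422699 to 34450887. At 25 kb there were again 8, but they were not the same: 1 cluster of 115 sites ran over 652 kb from 33896446 to 34548624, through all of class II, and 4 lay beyond 35600000.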

How the data were processed

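DNaseI sequencing was done on 1 tumour. Per the submitters' processing notes, BWA 0.6.2 and SAMtools were used with the mm9 build. The sources used here do not give the peak caller, its threshold, filters or the role of the input. The list the authors deposited holds chromosome, start and end, with no score, so depth is unknown. Positions are printed counted from 1.

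Density was set against the rest of chromosome 17 from its first to its last site. Intervals at 95% are exact Poisson for counts, exact binomial (Clopper-Pearson) for shares and density ratios, and from order statistics for medians. Sites named were, by rule, the widest 10, those of 2500 bp or wider, the 5 fullest steps, all clusters of 10 or more and the 3 longest gaps; others, and the split at 36.5 Mb, were chosen after their values were seen. The members, blocks and lists were chosen with earlier results of these data known. Alternatives included wider sites only, covered bases, joined sites and other joining distances. Of 18 class II, 31 class III and 29 class I genes listed, 14, 24 and 21 matched the promoter table. Python 3.11.15 was used with scipy 1.17.1, pandas 2.3.3, numpy 2.4.6 and, for plots, matplotlib 3.10.9. The intervals for density ratios and medians were tested on simulated draws of independent sites, and the joining of sites on a small made list. The other steps were not tested in this way.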

Additional observations from a re-analysis of the deposited data

How the results depend on the processing

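Of 29 recomputed values, 23 stayed within the counting interval of the value reported (a number of clusters, within a factor of 1.5), 6 moved further and none reversed. Only the density ratios could count as reversed. Cluster numbers, shares of the profile and the width difference could not, by the rule used. The density ratio to the rest of chromosome 17 was 3.55 by covered bases in place of sites, and 4.57 with the region ended at 36.5 Mb, a limit chosen after seeing the data that leaves out all 12 empty steps. The median width exceeded that of the rest of the chromosome by 69 bp (-5 to 124), and by 218 bp (16 to 350) after neighbours within 1 kb were merged with the gaps between them. Against all other autosomal sites the excess was 86 bp (12 to 141). Joining at 5 kb gave 2 clusters, against 8 reported. There were 16 with a minimum of 5 sites and 4 among sites wider than 663 bp, the median of the list. The ratio of class II to class III density lay between 1.77 and 2.16 over its alternatives. No paired analysis was possible because there is 1 library with a list and no replicate, and no replicate could be left out. Without counts per site, no stricter threshold by signal was tried, and placement at genes, site sequences and the input were not analysed here.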
